A study of Mus musculus with 24 samples.

Results

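The genes described here mark the intercalated cells of the kidney collecting duct and connecting tubule, and they are Foxi1, Slc26a4, Slc4a1, Atp6v1g3, Atp6v0d2, Atp6v1b1, Atp6v0a4 and Hepacam2. They are 8 of the 14407 genes in the deposited gene table. They were picked by name because most of them leaned higher in obstructed kidneys of the late drug course than in obstructed kidneys given vehicle, so that difference is described below without a test. All 8 were listed, and all 8 passed the filter of at least 1 FPKM in at least 4 libraries that left 13127 genes for testing.

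RNA of whole left kidneys of wildtype mice had been sequenced in 24 libraries, 4 in each of 6 groups. Surgery was either unilateral ureteral obstruction (UUO), in which 1 ureter is closed so that urine backs up into the kidney, or a sham procedure. Within each surgery they received vehicle or istradefylline, a drug that blocks the adenosine receptor made from Adora2a, in a course that the labels call early or late intervention. The groups are named by surgery and treatment as UUO vehicle, sham vehicle, UUO early, sham early, UUO late and sham late. The sources used here give no dose, day, strain, sex or age. Nothing in the labels ties the libraries of a group to separate animals, so p-values measure only the spread between libraries.

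Intercalated cells set the acid and base content of urine. Type A cells pump protons into the urine with the vacuolar H+-ATPase (V-ATPase) and return bicarbonate to the blood through the exchanger AE1, the product of Slc4a1. Type B cells secrete bicarbonate through pendrin, the product of Slc26a4, and the forkhead transcription factor Foxi1 is needed in mice for both types to form. The V-ATPase is built from many subunits that every cell uses, and intercalated cells replace several of them with forms of their own, here G3 (Atp6v1g3), B1 (Atp6v1b1), d2 (Atp6v0d2) and a4 (Atp6v0a4). Hepacam2, an immunoglobulin-type membrane protein, is used as a marker of these cells.

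The genes lie on 5 chromosomes of GRCm38, with coordinates as the deposited table gives them. Foxi1 spans chr11:34204338-34208089 and Slc4a1 chr11:102348824-102366203, both on the minus strand. Slc26a4 spans chr12:31519827-31559969 on the minus strand. Of the V-ATPase genes, Atp6v1g3 spans chr1:138273738-138289462 on the plus strand, Atp6v0d2 chr4:19876841-19922605 on the minus strand, Atp6v1b1 chr6:83742990-83758855 on the plus strand and Atp6v0a4 chr6:38048483-38124586 on the minus strand. Hepacam2 spans chr6:3457096-3498298 on the minus strand.

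RefSeq promoter windows on GRCm38.p6, running from 250 bases before to 50 bases after a gene's start, were found for 6 of the 8 genes. Because Foxi1 belongs to the forkhead family, the windows were searched on both strands for 4 forkhead-type words. These were TGTTTAC with the related TATTTAC, the word TGTTTGC, and as the fourth TGTTTGT. They differ from each other and so cannot lie on the same bases of a strand. Atp6v1b1 held TGTTTAC 98 to 92 bases before its start. Atp6v1g3 held TGTTTGT on the opposite strand, read as ACAAACA, 67 to 61 bases before its start. The other 4 windows (Foxi1, Slc26a4, Atp6v0a4 and Hepacam2) held none of these letters. Among 32851 promoter windows of the same length, TGTTTAC was in 3.65%, TGTTTGT in 6.61% and any of the 4 words in 16.66%. The windows of the 2 genes with a match are printed with it in capitals, followed by the window of Foxi1 itself and that of Hepacam2, whose UUO late and UUO vehicle libraries did not overlap. A match describes letters and not a bound site.
Atp6v1b1 (GRCm38.p6, plus strand, chr6:83742767-83743066): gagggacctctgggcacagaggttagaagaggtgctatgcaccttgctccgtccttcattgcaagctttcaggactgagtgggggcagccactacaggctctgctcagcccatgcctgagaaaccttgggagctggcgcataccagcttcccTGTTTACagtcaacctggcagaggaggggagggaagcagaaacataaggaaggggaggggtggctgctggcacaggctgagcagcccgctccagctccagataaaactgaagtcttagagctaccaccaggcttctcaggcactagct
Atp6v1g3 (GRCm38.p6, plus strand, chr1:138273488-138273787): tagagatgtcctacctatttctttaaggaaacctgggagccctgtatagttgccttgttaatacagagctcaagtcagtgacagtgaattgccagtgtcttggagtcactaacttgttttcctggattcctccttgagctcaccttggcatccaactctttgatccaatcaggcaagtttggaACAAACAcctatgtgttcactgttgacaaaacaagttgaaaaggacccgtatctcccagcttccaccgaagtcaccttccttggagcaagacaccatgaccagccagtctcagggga
Foxi1 (GRCm38.p6, minus strand, chr11:34208040-34208339): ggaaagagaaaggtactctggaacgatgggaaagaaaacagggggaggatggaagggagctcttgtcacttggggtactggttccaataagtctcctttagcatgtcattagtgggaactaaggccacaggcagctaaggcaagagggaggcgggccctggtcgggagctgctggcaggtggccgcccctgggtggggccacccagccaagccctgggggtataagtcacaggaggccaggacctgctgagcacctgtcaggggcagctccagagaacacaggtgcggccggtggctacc
Hepacam2 (GRCm38.p6, minus strand, chr6:3494449-3494748): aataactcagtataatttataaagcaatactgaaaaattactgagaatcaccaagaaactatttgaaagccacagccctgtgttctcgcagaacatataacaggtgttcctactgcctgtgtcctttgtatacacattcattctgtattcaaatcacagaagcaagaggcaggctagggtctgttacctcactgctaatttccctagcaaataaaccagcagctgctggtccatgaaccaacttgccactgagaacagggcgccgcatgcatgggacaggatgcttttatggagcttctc

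Depth was estimated from the smallest steps of the transcript values at 7770000 to 12920000 fragments per library, with a median of 10320000. For UUO early 1 the step was ambiguous, and its depth could be off by a factor of 2 either way. Its best step scored 2.56 times the median score of the steps tried. That score was lower still in UUO early 2 (2.08), UUO early 3 (2.14), UUO late 1 (2.53), UUO late 2 (2.44) and UUO late 3 (2.17). The depths of these libraries, among them the highest, are therefore rough too. At the estimated depths Hepacam2 rested on an estimated 69 to 214 fragments per library and Slc4a1 on 12 to 567, while Atp6v0a4 rested on 281 to 2223. The fewest for Slc4a1 came from obstructed kidneys, where its level was lowest. No 2 libraries held identical values. The library UUO early 4 stood apart, with the highest summed macrophage markers of all 24 libraries (3564 FPKM), the lowest proximal tubule markers (107 FPKM) and the lowest sum of the other intercalated cell genes (205 FPKM), and the changes of the 8 genes in UUO early against sham early are also given without it.

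In sham kidneys the genes were expressed at clearly different levels. The order given here is of gene FPKM, which is scaled for length, and it holds only roughly, because the gene value of Hepacam2, Atp6v1b1 and Atp6v0a4 was lower than the sum of the same gene's transcripts (a median of 0.40, 0.48 and 0.67 of it) while it was at least 0.93 of it for the other 5. In sham vehicle, Atp6v1g3 was highest at 42.1 ± 2.58 FPKM (SD, n = 4), a level above that of 91.3% of the genes in the table. Its libraries overlapped with Atp6v0a4 through 1 library only, sham vehicle 2 at 43.9 FPKM of Atp6v0a4. Atp6v0a4 at 26.7 ± 11.5, Slc26a4 at 23.8 ± 6.22 and Atp6v1b1 at 18.7 ± 1.36 followed, and these 3 neighbours did not differ beyond their spread. Foxi1 at 12.6 ± 1.10, Atp6v0d2 at 11.4 ± 0.622 and Slc4a1 at 9.22 ± 2.02 came next, again with overlapping libraries. Hepacam2 was lowest at 2.11 ± 0.233 FPKM, above 36.3% of the genes.

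**Figure D1:**
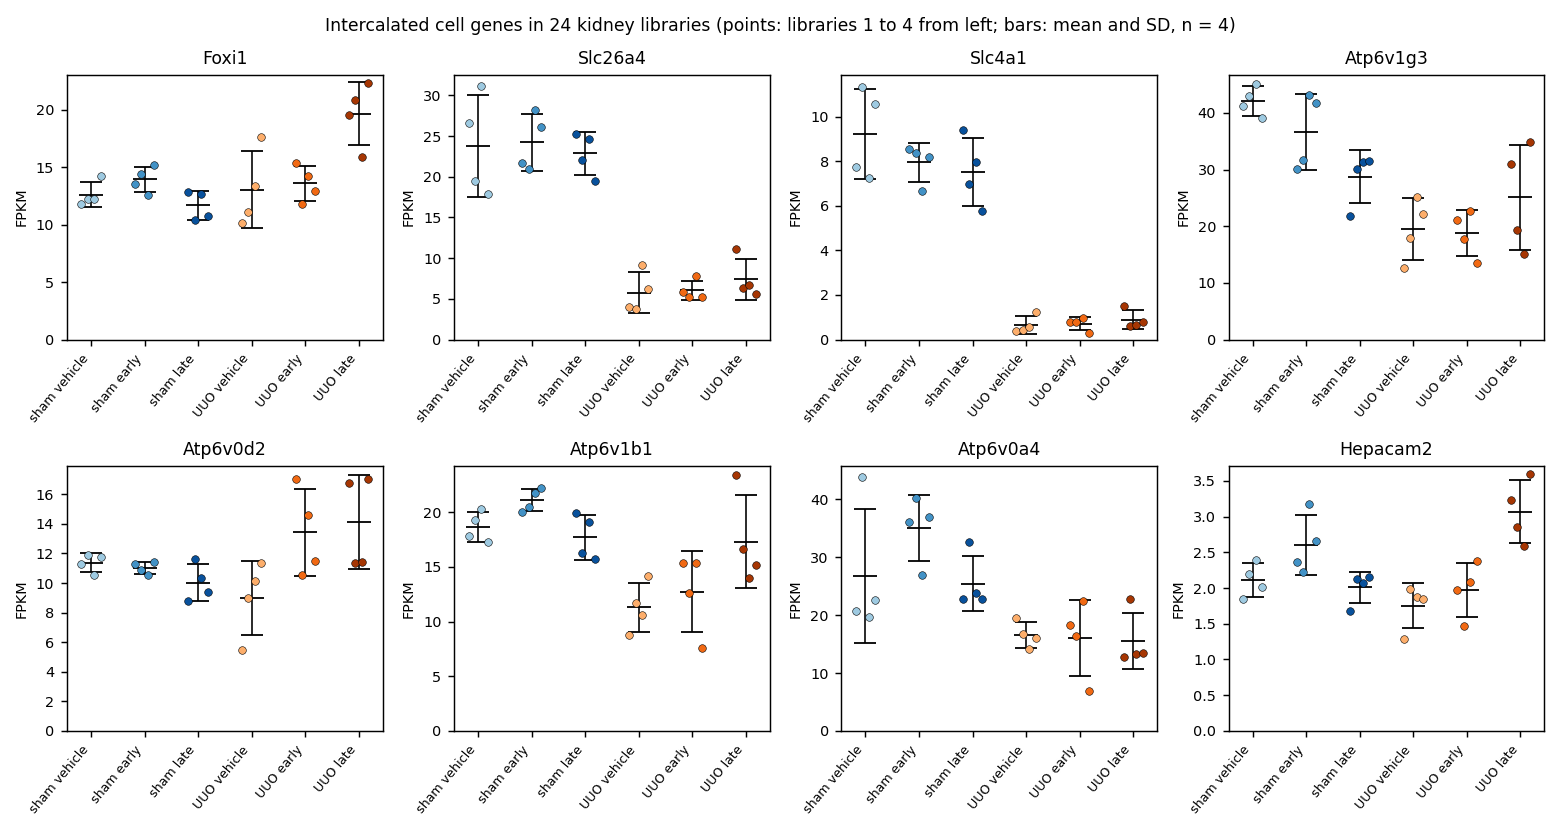
FPKM of the 8 genes (vertical axis, from 0) in each library of the 6 groups (horizontal axis), with points for libraries and bars for the mean and SD of 4. Slc4a1 and Slc26a4 sit far lower in every obstructed library than in every sham library, Foxi1 does not, and Hepacam2 is highest in UUO late.

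UUO early against sham early was the obstruction comparison made on libraries that the choice of genes had not used. In it, 6 of the 8 genes fell, none rose, and the largest falls were those of the 2 anion exchangers. Over all tested genes 17.3% fell and 54.7% rose in this comparison (71.9% in either direction), and the median change was 0.40 on the log2(FPKM + 1) scale, against -0.83 for the 8 genes. These tests used limma with a mean-variance trend and Benjamini-Hochberg adjustment over all tested genes, with a threshold of 0.05. In whole-kidney RNA, fewer intercalated cells and less RNA of a gene per cell cannot be told apart.

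Slc4a1, the type A exchanger, fell most. Its sham early libraries held 8.55, 8.37, 6.67 and 8.18 FPKM, and its UUO early libraries 0.769, 0.810, 0.982 and 0.281 FPKM. Every obstructed library was far below every sham library. The means were 7.95 ± 0.861 and 0.710 ± 0.301 FPKM, a log2 change of -2.40 (SE 0.18, adjusted p = 4.4e-10 by limma). Red blood cells also express Slc4a1. The 6 red cell markers analysed here, mainly globins, summed to 465 to 1023 FPKM in sham early and 281 to 968 FPKM in UUO early, ranges that overlapped, and 0 of the 5 tested passed the threshold by limma (0 also at an unadjusted p under 0.05), while 3 fell under median-of-ratios scaling, which rescales each library by the median ratio of its genes.

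Slc26a4, the type B exchanger pendrin, fell next most. It held 21.7, 20.9, 28.2 and 26.1 FPKM in sham early against 5.86, 5.21, 7.78 and 5.29 FPKM in UUO early. The groups did not overlap. The mean went from 24.2 ± 3.49 to 6.04 ± 1.20 FPKM, a log2 change of -1.85 (SE 0.22, adjusted p = 3.72e-07 by limma).

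Among the V-ATPase genes, Atp6v0a4, Atp6v1g3 and Atp6v1b1 fell and Atp6v0d2 did not pass the test. Atp6v0a4, the membrane subunit a4 that is also known from mouse proximal tubule, held 36.1, 40.2, 27.0 and 37.0 FPKM in sham early and 18.3, 16.4, 22.4 and 6.89 FPKM in UUO early. Its log2 change was -1.18 (SE 0.28, adjusted p = 0.000773), and -0.84 without UUO early 4, its lowest library. The groups did not overlap with or without that library. All 10 proximal tubule markers tested fell in the same comparison, their sum going from 2132 to 2185 FPKM down to 107 to 817 FPKM, and the part of this in the fall of Atp6v0a4 was not tested.

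Atp6v1g3, the stalk subunit G3, held 30.2, 31.7, 43.1 and 41.6 FPKM in sham early and 21.2, 17.7, 22.7 and 13.5 FPKM in UUO early. Atp6v1b1, the nucleotide-binding subunit B1, held 20.0, 20.5, 21.7 and 22.2 FPKM against 15.4, 12.6, 15.4 and 7.56 FPKM. Neither gene's groups overlapped. The log2 changes were -0.94 (SE 0.23, adjusted p = 0.00105) for Atp6v1g3 and -0.73 (SE 0.18, adjusted p = 0.000908) for Atp6v1b1, and without UUO early 4 they were -0.80 and -0.52, both still past the threshold by limma.

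Atp6v0d2, subunit d2, was the one gene with a positive value. Its libraries held 11.3, 10.9, 10.5 and 11.4 FPKM in sham early, a narrow range, and 17.0, 10.5, 14.6 and 11.5 FPKM in UUO early. The groups overlapped, and the log2 change of 0.24 (SE 0.17) had an adjusted p of 0.219 by limma. When every library was rescaled to the same sum of FPKM it was 0.41 (adjusted p = 0.0486), and under median-of-ratios scaling it was -0.21 (adjusted p = 0.270), so its direction rests on the scaling. Macrophages and osteoclasts also express Atp6v0d2. Of 9 tested genes of osteoclasts and lipid-laden macrophages 6 rose (Spp1, Ctsk, Trem2, Dcstamp, Gpnmb and Mmp9), where 54.7% of all tested genes did, and Mitf, Acp5 and Tfeb did not pass the test by limma. Acp5, an osteoclast phosphatase, was at 26.2 and 25.9 FPKM (log2 change -0.08, adjusted p = 0.813). The sum of the list, 324 to 391 FPKM in sham early and 3725 to 4786 FPKM in UUO early, was almost wholly Spp1, which kidney tubules also express and which was at 291 to 355 FPKM and 3595 to 4687 FPKM. Without Spp1 the sums were 33.2 to 35.5 FPKM and 63.7 to 129 FPKM. Their part in the level of Atp6v0d2 was not tested.

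Foxi1 itself was nearly level. It held 13.5, 14.4, 12.6 and 15.2 FPKM in sham early and 15.4, 11.8, 14.3 and 12.9 FPKM in UUO early, and the groups overlapped throughout. The log2 change was -0.04 (SE 0.13, adjusted p = 0.811 by limma), 0.13 after rescaling to the same sum, and -0.49 with an adjusted p of 0.00286 under median-of-ratios scaling. Median-of-ratios scaling also moved the median of all tested genes from 0.40 to 0.03, and under it 7 of the 8 genes fell, all but Atp6v0d2. The share of all tested genes that fell under that scaling was not counted, and 17.3% holds for the FPKM scale only.

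Hepacam2 held 2.36, 2.23, 3.17 and 2.66 FPKM in sham early and 1.97, 1.47, 2.08 and 2.38 FPKM in UUO early. The highest obstructed library lay above 2 of the sham libraries. Its fall was small, with a log2 change of -0.28 (SE 0.11, adjusted p = 0.0313 by limma), and the call did not hold in several alternatives. It was lost after rescaling to the same sum (adjusted p = 0.246), in a fit of the compared groups alone (0.0775), and without sham early 3 (0.122), sham early 4 (0.0616), UUO early 1 (0.0502) or UUO early 2 (0.137).

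Without the library UUO early 4, 6 of the 8 genes again fell and none rose. The log2 change was then -2.27 for Slc4a1, -1.80 for Slc26a4 and -0.34 for Hepacam2 (adjusted p = 2.4e-09, 2.52e-06 and 0.0138 by limma). It was 0.30 for Atp6v0d2 and -0.02 for Foxi1 (adjusted p = 0.158 and 0.928).

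**Figure D2:**
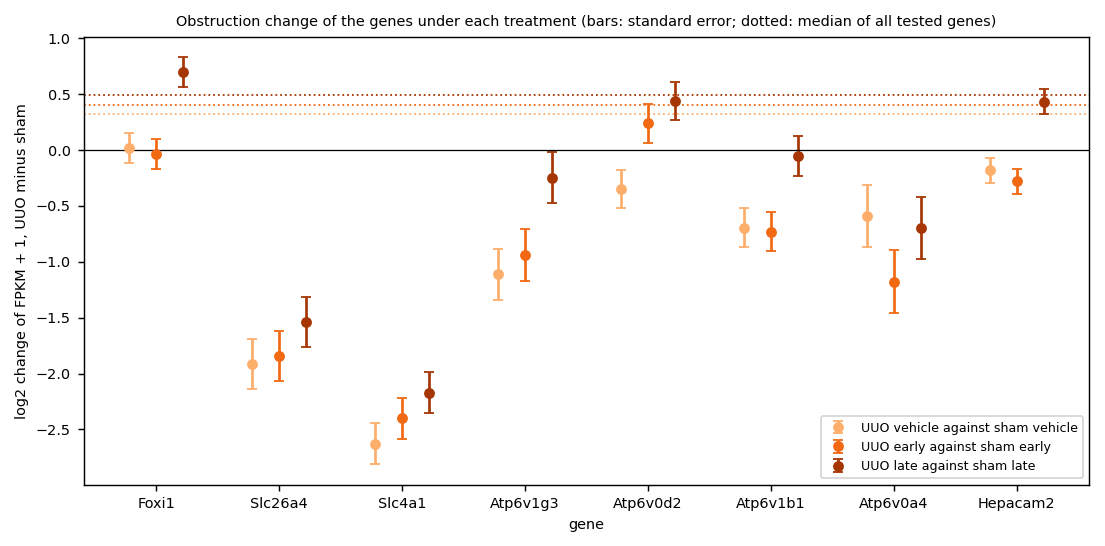
Log2 change of FPKM + 1 from sham to UUO (vertical axis) of each gene (horizontal axis) under vehicle, the early course and the late course, with standard errors and, dotted, the median of all tested genes. Slc4a1 lies between -2.63 and -2.17 and Slc26a4 between -1.91 and -1.54 in all 3, while Foxi1 ranges from -0.04 to 0.70.

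Because the scaling between libraries moved several of these values, ratios of genes within a library, which no scaling can change, were computed as well. They were chosen after the data had been seen, were 11 in number, and were compared by two-sided exact permutation tests with Benjamini-Hochberg adjustment over the 11, where 0.0286 is the smallest p that 4 against 4 libraries allow. Relative to Foxi1, 6 of the other 7 genes differed between UUO early and sham early. Foxi1 was nearly level there (log2 change -0.04), and 71.9% of all tested genes were called by limma in the same comparison. The share of all genes that differ relative to Foxi1 was not counted. Slc4a1 went from 0.570 to 0.0523 FPKM per FPKM of Foxi1, Slc26a4 from 1.75 to 0.444, Atp6v1g3 from 2.65 to 1.38, Atp6v0a4 from 2.51 to 1.17 and Atp6v1b1 from 1.52 to 0.933. In each of these 5 the groups did not overlap, with an exact p of 0.0286 and an adjusted p of 0.0393. Atp6v0d2 was the exception in direction, at 0.753 to 0.836 per Foxi1 in sham early and 0.891 to 1.11 in UUO early, with the same exact p of 0.0286 and adjusted p of 0.0393. Hepacam2 per Foxi1 was at 0.189 and 0.146 and did not pass (exact p = 0.171, adjusted p = 0.189). Without sham early 1 or sham early 2 the adjusted p of the 5 lower ratios was 0.0524, and without any 1 of the 4 sham early libraries that of Atp6v0d2 was 0.105 by the same permutation test. Leaving out a library cannot make these groups overlap, but the exact test then has fewer splits and coarser p-values. A call lost in this way therefore does not show that the ratio rests on that library.

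The intercalated-cell forms were then set against the other genes for the same V-ATPase subunit. These shares use gene FPKM, which was a median of 0.48 of the summed transcripts for Atp6v1b1 and 0.67 for Atp6v0a4. That ratio was not computed for the other genes of a subunit. The shares therefore compare groups and do not give the makeup of a subunit. The a4 gene held 70.4, 72.5, 65.5 and 67.0% of the summed FPKM of the subunit a genes in sham early and 36.0, 35.9, 48.7 and 12.1% in UUO early. The share of G3 in subunit G was 14.2, 15.8, 17.7 and 18.5% in sham early and 10.8, 8.24, 10.2 and 6.51% in UUO early. Both shares fell without overlap (exact p = 0.0286, adjusted p = 0.0393 by the permutation test). The other genes of these subunits did not move alike. Atp6v0a1 of subunit a held 3.32, 3.90, 3.11 and 13.7 FPKM in UUO early, highest in UUO early 4. Its mean in sham early was 2.49 FPKM. Atp6v0a2 of subunit a had a mean of 8.94 FPKM in sham early and 7.74 FPKM in UUO early. For Atp6v1g2 of subunit G the means were 0.947 and 0.615 FPKM. Tcirg1, subunit a3 of osteoclasts and immune cells and no intercalated-cell form, rose from 4.28 to 20.2 FPKM (log2 change 1.94, SE 0.18, adjusted p = 5.58e-09 by limma), whereas Atp6v1g1 was at 183 and 191 FPKM (log2 change 0.06, adjusted p = 0.445). B1 held 23.3% of subunit B in sham early and 19.9% in UUO early, which overlapped (exact p = 0.314), since Atp6v1b2, the form of most cells, fell too (69.3 to 50.5 FPKM, log2 change -0.45, adjusted p = 4.91e-05 by limma). The share of d2 in subunit d was 13.1% and 18.2% (exact p = 0.0571, adjusted p = 0.0698), and passed without UUO early 2 (a difference of 6.47 percentage points, adjusted p = 0.0349 by the permutation test). Atp6v0d1, the other gene of subunit d, had a lower mean in UUO early (60.1 FPKM) than in sham early (73.8 FPKM), so the d2 share does not reflect Atp6v0d2 alone. Without sham early 1 or sham early 2 the adjusted p was 0.0524 for G3, and for a4 0.0786 and 0.0898, again from coarser p-values and with groups that still did not overlap. Without UUO early 4, the a4 share differed by -28.7 percentage points (adjusted p = 0.0393 by the permutation test), and the other 10 ratios and shares stayed on their side of the threshold.

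**Figure D3:**
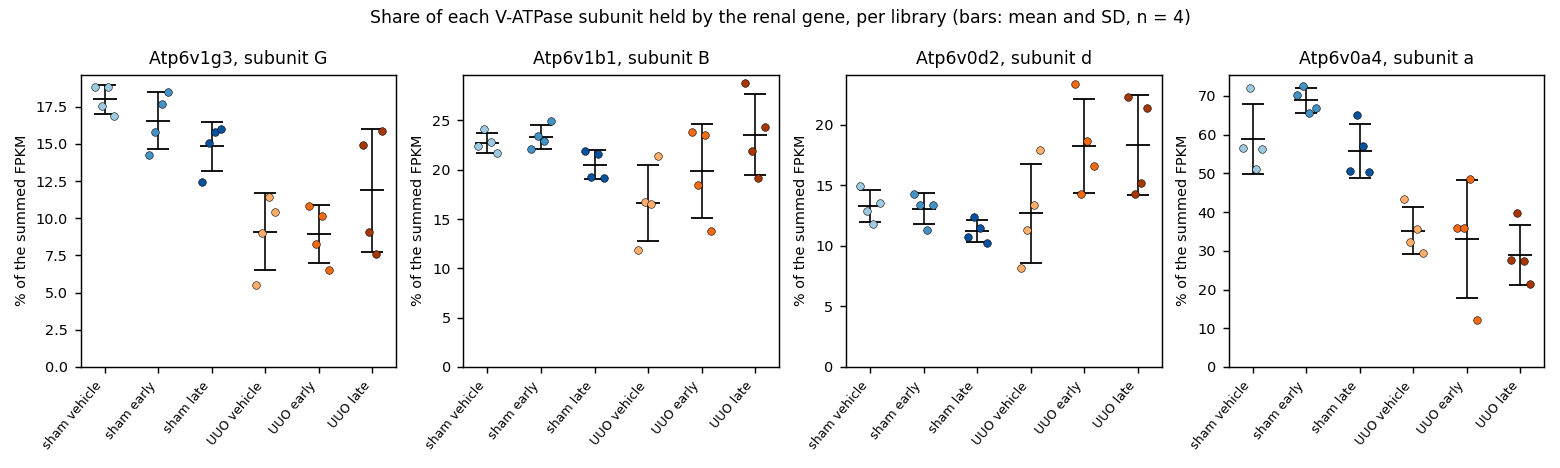
Share of the summed FPKM of a V-ATPase subunit's genes (vertical axes, percent) that came from G3, B1, d2 and a4 in each library of the 6 groups (horizontal axes), with mean and SD of 4. The a4 share is 50.3% or higher in every sham library and 48.7% or lower in every obstructed library. The shares compare groups and do not give the makeup of a subunit.

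Of 23 other intercalated cell genes 22 were in the table and 19 were tested, and most moved with the exchangers. In UUO early against sham early 11 of the 19 fell and 3 rose, with a median log2 change of -0.88. Atp4a, a proton-potassium pump subunit, had a log2 change of -2.37 (adjusted p = 1.07e-09), the ammonia transporter Rhbg -2.28 (5.32e-09), the insulin receptor relative Insrr -1.56 (3.4e-07) and the carbonic anhydrase Car12 -1.28 (9.16e-07), all by limma. The 3 that rose were Kit (0.58), Dmrt2 (0.82) and Atp12a (1.04), and by median-of-ratios scaling 13 fell and 1 rose. Without UUO early 4, 10 fell and 3 rose. Over the 20 other V-ATPase subunit genes 8 fell and 3 rose, a split that became 13 and 1 under that scaling and 6 and 3 without UUO early 4. Atp6v1c2, a C subunit form, had the largest fall among them, a log2 change of -1.58 (adjusted p = 8.99e-07).

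Other lists were counted in the same comparison, beside the 54.7% that rose and the 17.3% that fell over all tested genes. Those shares are of the FPKM scale and were not counted under median-of-ratios scaling. Principal cells are the neighbours of intercalated cells in the collecting duct, and 5 of their 11 tested genes fell and 1, Gata3, rose (9 and 1 under median-of-ratios scaling). Signals through Notch favour the principal cell over the intercalated cell in mice, and 11 of 12 tested Notch genes rose, with Jag1 at a log2 change of 1.74 and Hes1 at 1.41 (adjusted p = 1.77e-09 and 1.39e-06 by limma). Among 10 genes of V-ATPase assembly 4 rose and 1 fell, both smaller shares than over all genes, and among 11 acid-base genes of other nephron segments 3 rose and 7 fell. In the distal convoluted and connecting tubule list 5 of 8 fell and 2 rose. Pvalb of this list held 12.7, 35.6, 0.148 and 724 FPKM in UUO early, highest in UUO early 4, against 32.6 to 46.6 FPKM in sham early. Aqp4 of the principal cell list was also highest in UUO early 4, with 4.81, 2.16, 5.43 and 24.9 FPKM in UUO early. Summed macrophage markers went from 54.2 to 61.5 FPKM in sham early to 1564 to 3564 FPKM in UUO early, with 10 of 11 tested entries rising. The part of such shifts in cell makeup in the changes of the 8 genes was not tested.

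Under vehicle and under the late course the same obstruction contrast uses libraries on which the genes were chosen, so its values are given as a description. From sham vehicle to UUO vehicle the log2 change was -2.63 for Slc4a1, -1.91 for Slc26a4, -1.11 for Atp6v1g3, -0.69 for Atp6v1b1 and -0.59 for Atp6v0a4, and the libraries of these 5 genes did not overlap. It was -0.35 for Atp6v0d2, -0.18 for Hepacam2 and 0.02 for Foxi1, each with overlap. How many of all tested genes did not overlap was not counted. The median of the 8 was -0.64, against 0.32 over all tested genes, of which 67% were called (50.3% higher and 16.7% lower).

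From sham late to UUO late the exchangers were again far lower, at -2.17 for Slc4a1 and -1.54 for Slc26a4, without overlap. Foxi1 was higher in UUO late, with 19.6, 20.9, 15.9 and 22.3 FPKM against 12.8, 10.4, 12.7 and 10.8 FPKM in sham late, a log2 difference of 0.70 that fell to 0.13 under median-of-ratios scaling. Hepacam2 was at 0.43 without overlap, and near 0 under that scaling. The others overlapped, at 0.44 for Atp6v0d2 (-0.12 under that scaling), -0.70 for Atp6v0a4, -0.25 for Atp6v1g3 and -0.05 for Atp6v1b1. The median of the 8 was -0.15 and that of all tested genes 0.49, with 75.6% called (59% higher and 16.5% lower). The courses were compared over different sham libraries, and whether the obstruction change differed between them was not tested for these genes.

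The other intercalated cell genes, which did not enter the choice although these libraries did, were tested in both. From sham vehicle to UUO vehicle 12 of 19 fell and 3 rose, led by Rhbg at a log2 change of -2.63 (adjusted p = 8.92e-10 by limma). From sham late to UUO late 9 fell and 5 rose. The 5 that rose were Kit (1.01), Dmrt2 (1.61), Tfcp2l1, a transcription factor of collecting duct cells (0.70), Adgrf5 (0.84) and Atp12a (0.90). By median-of-ratios scaling the split was 14 and 0 under vehicle and 13 and 3 under the late course.

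In sham kidneys, where the drug was given without obstruction, 0 of the 8 genes passed the threshold by limma in sham early against sham vehicle, sham late against sham vehicle or sham late against sham early. Over all tested genes 0.00762%, 1.42% (0.0609% higher and 1.36% lower) and 0.00762% passed in these comparisons. At an unadjusted p under 0.05 there was 1 gene in each of the comparisons that involve sham late and none in the first. Of all 13127 tested genes, 1122 were under that p in the first. In sham late against sham vehicle 2150 were, and in sham late against sham early 908. Atp6v1g3 held 41.2, 42.9, 45.1 and 39.1 FPKM in sham vehicle and 21.8, 30.2, 31.4 and 31.6 FPKM in sham late. These groups did not overlap, yet the log2 difference of -0.55 (SE 0.23) had an adjusted p of 0.235. Hepacam2 held 1.69, 2.12, 2.07 and 2.16 FPKM in sham late, all below the 4 sham early libraries, with a log2 difference of -0.26 (SE 0.11, unadjusted p = 0.0328, adjusted p = 0.678). All 8 genes were lower in sham late than in sham vehicle on the FPKM scale, where only 29.9% of all tested genes were higher. The largest of these differences had an unadjusted p of 0.0265 by limma, and under median-of-ratios scaling 5 of the 8 were higher. The 3 comparisons share their libraries in pairs.

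The difference on which the genes were chosen, UUO late minus UUO vehicle, was positive for 7 of the 8. The median was 0.46 on the log2 scale, against 0.04 over all tested genes, of which 60.1% were positive. Only 0.137% of all tested genes passed the threshold in this comparison, and nothing is read from the 8 genes here since the rule used it. The differences were 0.61 for Atp6v0d2, 0.58 for Foxi1, 0.57 for Atp6v1b1, 0.57 for Hepacam2, 0.35 for Slc26a4, 0.32 for Atp6v1g3 and 0.20 for Slc4a1. Atp6v0a4 went against the rule at -0.12.

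Only Hepacam2 had groups that did not overlap in it, and the share of all tested genes without overlap was not counted. Its UUO vehicle libraries held 1.29, 1.99, 1.88 and 1.85 FPKM and its UUO late libraries 3.24, 2.85, 2.59 and 3.59 FPKM, and every UUO late library was also above 10 of the 12 sham libraries. The other 2 were sham early 3 (3.17 FPKM) and sham early 4 (2.66 FPKM). Foxi1 held 10.1, 11.1, 13.3 and 17.6 FPKM in UUO vehicle, a wide range whose highest library reached into UUO late. Atp6v1b1 held 8.75, 11.6, 10.6 and 14.1 FPKM in UUO vehicle and 23.4, 16.6, 14.0 and 15.2 FPKM in UUO late. In both genes a single pair of libraries made the overlap, UUO vehicle 4 with UUO late 3.

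Atp6v0d2 held 5.49, 9.00, 10.1 and 11.4 FPKM in UUO vehicle and 16.8, 11.3, 11.4 and 17.1 FPKM in UUO late, where UUO vehicle 4 lay just above UUO late 2. Atp6v1g3 overlapped widely, at 12.5, 18.0, 25.2 and 22.2 FPKM in UUO vehicle and 30.9, 19.4, 15.2 and 34.8 FPKM in UUO late. The exchangers stayed far below their sham levels in both groups, with Slc26a4 at 3.70 to 9.10 FPKM in UUO vehicle and 5.57 to 11.1 FPKM in UUO late, and Slc4a1 at 0.400 to 1.22 FPKM and 0.610 to 1.51 FPKM. Atp6v0a4 was at 14.2 to 19.6 FPKM and 12.8 to 22.9 FPKM. The high end of Slc26a4, Slc4a1 and Atp6v1b1 in UUO late was the same library, UUO late 1.

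**Figure D4:**
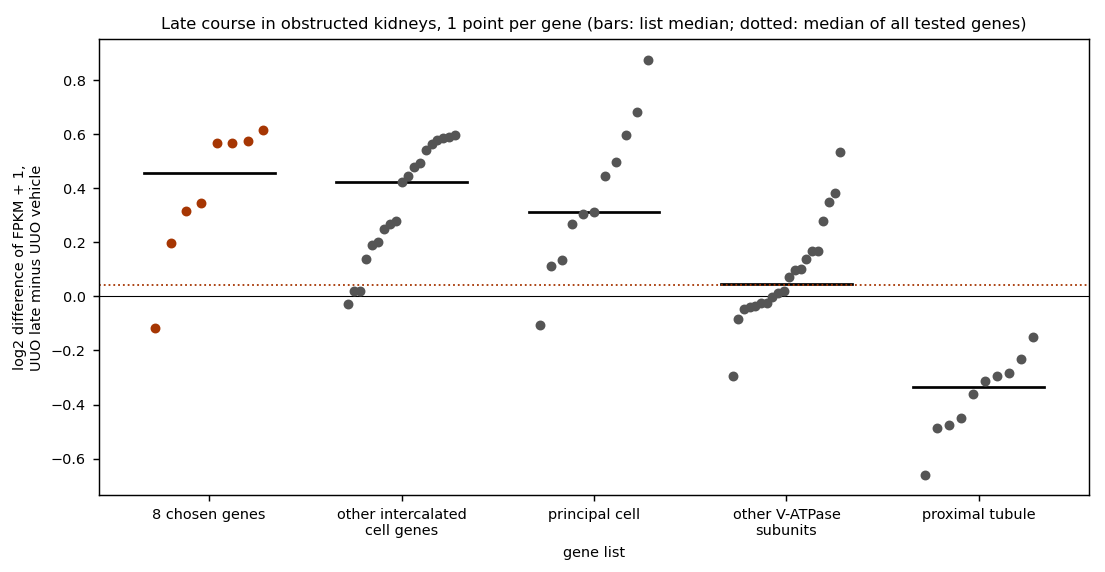
Log2 difference of FPKM + 1, UUO late minus UUO vehicle (vertical axis), with 1 point per gene for the 8 chosen genes and 4 other lists (horizontal axis), list medians as bars and the median of all tested genes dotted. The median is 0.46 for the chosen genes, 0.42 for other intercalated cell genes, 0.31 for principal cell genes, 0.05 for other V-ATPase subunits and -0.34 for proximal tubule genes. All lists were read in the libraries on which the 8 genes were chosen.

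UUO early was set beside these groups in the same way, since it shares the UUO vehicle or the UUO late libraries with the choice. Against UUO vehicle, 6 of the 8 genes were positive with a median of 0.09, and the largest value was 0.55 for Atp6v0d2. UUO late minus UUO early was positive for all 8 on the FPKM scale, with a median of 0.29, and for 7 under median-of-ratios scaling, where Atp6v0a4 was at -0.02. Foxi1 (0.50) and Hepacam2 (0.45) had groups that did not overlap in it. Of all tested genes 0.0152% and 0.0305% passed the threshold in these comparisons, which is a stricter measure than overlap. The share of all tested genes without overlap was not counted.

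Of the 19 other intercalated cell genes 18 were positive in UUO late minus UUO vehicle, with a median of 0.42, and 0 passed the threshold by limma. At an unadjusted p under 0.05 there were 6. Of all 13127 tested genes, 1257 were under that p in this comparison and 60.1% were positive. The genes described here were chosen on this same comparison and these same libraries. The counts for other lists are therefore no independent check of it. Kit, a receptor kinase, had the smallest adjusted p, 0.108, at a log2 difference of 0.59, Tfcp2l1 was at 0.48 (0.227), the oxoglutarate receptor Oxgr1 at 0.58 (0.230) and Rhbg at 0.58 (0.339). Without the library UUO vehicle 4, Kit passed, at 0.68 with an adjusted p of 0.0407. Principal cell genes were positive in 10 of 11, with 0 past the threshold by limma and 3 at an unadjusted p under 0.05, and proximal tubule genes were negative in 10 of 10. Among other V-ATPase subunits 12 of 20 were positive, with a median of 0.05 and 0 past the threshold (2 at an unadjusted p under 0.05).

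The transcript table gave a pattern that the gene values do not show. Atp6v0a4 had a pair of transcripts, 201 with 21 exons starting at 38124586 and 202 with 22 exons starting at 38109549, inside the gene. In 21 of 24 libraries transcript 202 held 0 to 9.10% of the gene's summed transcript FPKM. In UUO vehicle 2, UUO vehicle 3 and UUO early 4 it held 83.6%, 88.8% and 90.0%. These 3 libraries are all obstructed, 2 of UUO vehicle and 1 of UUO early, their summed transcript level was 24.9, 20.9 and 10.1 FPKM, and no test was made because the pattern was seen first. From the deposited values, a change of start site and a switch in how the software shared fragments between the transcripts cannot be told apart. With summed transcripts in place of gene values, 6 of the 8 genes again fell in UUO early against sham early.

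The genes were next compared across libraries within each surgery, as deviations of log2(FPKM + 1) from the group mean over 12 libraries. The 28 pairs in 2 surgeries gave 56 relations, tested by exact permutation of libraries within groups with adjustment over the 56, and 0 passed for Pearson's r (13 at an unadjusted exact p under 0.05, 8 of them in obstructed kidneys). In obstructed kidneys 25 of 28 pairs were positive, with a median r of 0.54, and in sham kidneys 13 of 28, with a median of -0.03. The difference between the surgeries was not tested. The share of positive pairs among all tested genes was not counted, so these counts do not set the 8 genes apart from others. The closest pairs in obstructed kidneys were Slc4a1 with Atp6v1b1 (r = 0.87, exact p = 0.00586, adjusted 0.109, rho = 0.85, exact p = 0.00774, adjusted 0.143, and r = 0.84 without the 2 libraries farthest from the median) and Atp6v1g3 with Atp6v0d2 (r = 0.87, exact p = 0.00383, adjusted 0.107, rho = 0.71, exact p = 0.0267, adjusted 0.249, and r = 0.81 without 2 libraries). In sham kidneys the closest was Atp6v1g3 with Hepacam2 (r = 0.86, exact p = 0.00318, adjusted 0.107, rho = 0.80, exact p = 0.00217, adjusted 0.122, and r = 0.84 without 2 libraries). Atp6v0a4 stood aside from most of the others, with r between -0.45 and 0.53 in obstructed kidneys.

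**Figure D5:**
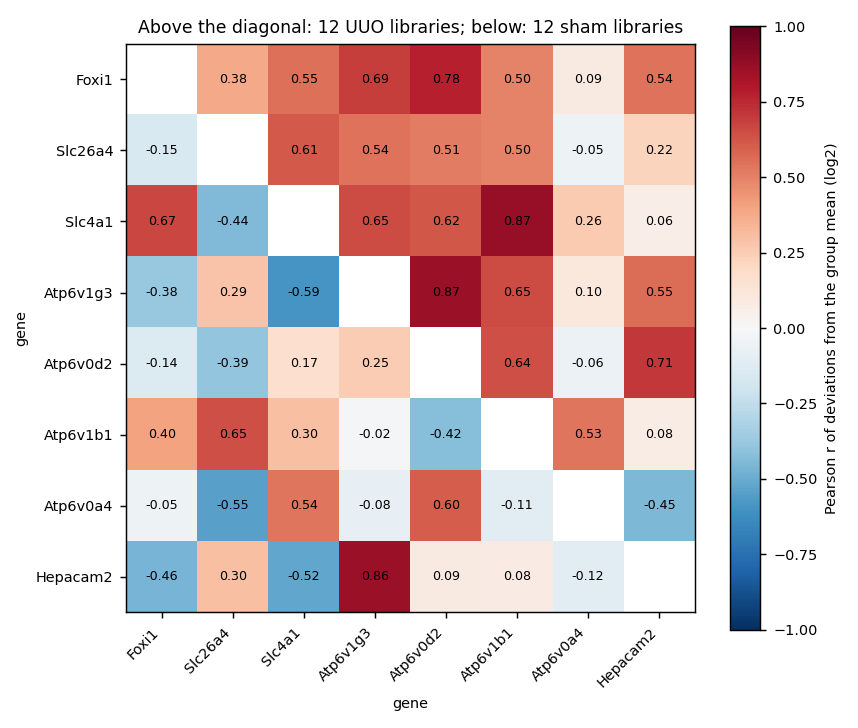
Pearson's r between the genes (both axes) of deviations from the group mean on the log2 scale, with the 12 UUO libraries above the diagonal and the 12 sham libraries below it. Most squares above the diagonal are red (25 of 28 positive) and 13 of 28 below it are, and none passed the adjusted exact test. The share of positive pairs among all tested genes was not counted.

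Among genes with a group mean of at least 5 FPKM, the 10 whose deviations were most like the mean of the 8 genes over all 24 libraries were Atp6v1c2 (r = 0.84), Ufsp1 (0.79), Kcnq1 (0.78), Rcan2 (0.77), Aif1l (0.76), Oraov1 (0.73), Tmem117 (0.73), Calb1 (0.73), mt-Nd6 (0.73) and Aqp6 (0.73). They were picked as the highest among all such genes, so these values carry no test. The list included another V-ATPase subunit gene, Atp6v1c2, the intercalated cell water channel gene Aqp6 and Calb1 of the connecting tubule. Kcnq1 was alike in both surgeries (r = 0.83 in sham and 0.81 in UUO), whereas mt-Nd6 was not (-0.21 and 0.81). For single genes, the nearest to Atp6v1b1 were Scnn1b (0.87), Ybx2 (0.86) and Rhcg (0.86), and the nearest to Hepacam2 were Eif3e (0.84), Ms4a6c (0.75) and Lst1 (0.74). Foxi1 was most like Rbm5 (0.73), Rcan2 (0.72) and Gm7694 (0.72), Slc26a4 like Atp6v1c2 (0.79), Acss1 (0.73) and Kptn (0.70), and Slc4a1 like Ccdc120 (0.77), Fzd4 (0.76) and Rabl2 (0.76). For the remaining V-ATPase genes the nearest were Tbca (0.78), Mettl23 (0.78) and Mndal (0.76) for Atp6v1g3, Clk1 (0.83), Spink12 (0.78) and Stau1 (0.76) for Atp6v0d2, and Pim3 (0.84), Cyp4a31 (0.82) and Adgra3 (0.82) for Atp6v0a4.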

How the data were processed

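The submitters sequenced whole left kidney RNA of 24 samples, prepared with a KAPA stranded kit per the labels' protocols. The authors deposited FPKM values (fragments scaled for length and depth) per gene and per transcript, per the file headers. Per the submitters' processing notes, the tools included StringTie, HISAT2 and cutadapt, and the mouse build was GRCm38, without versions. Read counts were not used here. Depth was therefore estimated from the smallest FPKM steps, and no counting interval was computed.

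Groups came from the labels, and so did replicate numbers, except that vehicle libraries were numbered by the table's column names. Genes with FPKM of at least 1 in at least 4 libraries were tested as log2(FPKM + 1), which understates changes of low genes, with limma 3.58.1 in R 4.3.3 (6 group means, 18 residual degrees of freedom, two-sided, Benjamini-Hochberg over 13127 genes, threshold 0.05). A gene "rose" or "fell" where its adjusted p was under it. Shares of all tested genes that rose or fell are on the FPKM scale and were not counted under other scalings. Nor was the share of all tested genes whose groups did not overlap, so overlap describes single genes only. Between groups, the 8 genes were tested only where neither UUO vehicle nor UUO late entered. Correlations of gene pairs used deviations from group means in all libraries. The code was tested on simulated data. Ratios and gene pairs were compared by exact permutation with Python 3.11.15.

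The genes and lists were chosen with earlier results of these data known. All 8 genes are named, with up to 4 genes of smallest p per list, all members that rose or fell where few did, the other genes of a V-ATPase subunit, and the nearest genes by correlation. Genes of the osteoclast list, and Jag1 and Hes1, were named after their values were seen. Pseudocount, filter, scaling, sample weights, a replicate block, the groups in the fit and each replicate were varied.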

Additional observations from a re-analysis of the deposited data

Results flagged for a closer look

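Within a group of 4, the highest or lowest library was far from the nearest of the others in 5 of the 48 groups examined (8 genes in 6 groups), where chance gives about 1 in 20. Of these, 3 concern Atp6v0a4, each time with replicate 2 highest. Whether replicate numbers link the groups is not given by the labels. Replicate 2 was also the highest for Atp6v0a4 in sham early, at 40.2 FPKM (the other libraries 27.0 to 37.0), but not in UUO vehicle or UUO early. In the 3 flagged groups Atp6v0a4 was at 43.9 FPKM in sham vehicle 2 (the other libraries 19.7 to 22.6), 32.6 FPKM in sham late 2 (22.7 to 23.8) and 22.9 FPKM in UUO late 2 (12.8 to 13.4). Foxi1 was at 14.2 FPKM in sham vehicle 4, above 11.8 to 12.2 FPKM in the rest. Atp6v1g3 was at 21.8 FPKM in sham late 1, below 30.2 to 31.6 FPKM. What set these libraries apart was not tested.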

How the results depend on the processing

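Of the counts and medians that answer a comparison, 219 alternative values stayed within 1.5 times the reported count or within the spread, and 4 moved. A count here is the total past the threshold, so a shift in its split into higher and lower does not show. Counts of 0 that stayed 0 are among the 219. Under median-of-ratios scaling the other V-ATPase subunits past the threshold became 13 for UUO vehicle against sham vehicle (1 higher, 12 lower) and 17 for UUO late against sham late (1 higher, 16 lower), and the median of the 8 genes for UUO vehicle minus sham vehicle became -1.01. The cause was not tested. Leaving out 1 replicate gave 5 to 6 of the 8 genes past the threshold for UUO early against sham early, 0 to 1 other intercalated cell genes for UUO late against UUO vehicle (1, Kit, without UUO vehicle 4), and a median of 0.31 to 0.57 for UUO late minus UUO vehicle. The labels' numbers were not taken to pair the samples, since no pair of groups had every same-numbered correlation of deviations over 0.1. Over 60 such correlations the range was -0.119 to 0.436 (median 0.00359), 7 were over 0.1, and 3 of these 7, with r of 0.219, 0.262 and 0.436, were between UUO early and UUO late. A library was closest to its own number in another group in 29 of 120 cases. With the number as a replicate block 6 of the 8 genes passed in UUO early against sham early, as without it. The block moved no other count by over 1.5 times. Of the single genes and ratios, 1062 alternative values kept their call, 25 lost it and 4 gained it. Atp6v1d of UUO late against sham late lost it after rescaling to the same sum (-0.06, adjusted p = 0.510 by limma), and the rest are given with their results. Estimated depth limits Slc4a1 in obstructed kidneys and Hepacam2 most.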
